A study of Mus musculus with 6 samples.

Results

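Cell junction, cadherin and keratin genes were followed in mouse embryonic stem cells in which the coactivator p/CIP had been lowered with siRNA. They are 33 of the 19938 genes with a symbol of their own on the array: 14 of tight junctions, 7 of desmosomes, 7 cadherins, catenins and Epcam, 3 keratins and 2 of gap junctions. They were matched by symbol, and each had exactly 1 probe set. The choice of genes was made with earlier results of these data known. The cells were wild-type E14 cells, a line of mouse embryonic stem cells, grown on adherent plates. The groups were cells given p/CIP siRNA 1, cells given p/CIP siRNA 2, and cells given pooled non-specific siRNAs as control, with 2 arrays each. They follow the sample titles and source names, while the treatment protocol names siRNA 1 for both p/CIP siRNAs. p/CIP is the product of Ncoa3, a coactivator of nuclear receptors. The labels do not give the time after transfection or say whether replicates are separate cultures. The spread behind each p-value is that between these arrays and may be technical.

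Epithelial cells, and mouse embryonic stem cells in their compact colonies, hold to each other through several kinds of junction. Tight junctions seal the space between cells with claudins, occludin and junctional adhesion molecules, which are tied to actin by the scaffold proteins of the Tjp family. Adherens junctions join cells through cadherins and catenins, and desmosomes anchor keratin filaments through desmogleins, desmocollins, plakophilins, plakoglobin and desmoplakin. Gap junctions, built of connexins, pass small molecules from cell to cell. In mouse embryonic stem cells E-cadherin is the main cadherin, and keratins 8 and 18 are the pair typical of simple epithelia.

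All values are on the log2 scale of the deposited table, so a difference of 1 is a doubling of signal. A gene was called where its Benjamini-Hochberg adjusted p over all 19938 genes was under 0.05 in limma, a linear model with a moderated variance. The fit was also made with the replicate number as a block, which compares arrays of equal number, and its adjusted p is given where it changes a call. Levels of different genes come from different probes and were not set against each other. Differences in RNA level from fewer cells of a type or from less RNA per cell cannot be told apart in these bulk samples.

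As a check of the labels, Ncoa3 read 10.71 and 10.93 with siRNA 1 and 10.71 and 10.92 with siRNA 2, against 12.33 and 12.28 in control cells, a log2 change of -1.49 (adjusted p = 0.0287). Array pairs correlated at 0.991 to 0.998 across genes. Replicate 2 of siRNA 1 stood apart, with an interquartile range of 3.13 against 3.33 to 3.45 on the other 5 arrays. All 12 markers of embryonic stem cells were above the median gene in control cells, as the label has it. Their mean level per array was 11.97 to 12.10 with siRNA 1 and 11.99 to 12.11 with siRNA 2, against 12.22 to 12.32 in control cells, and 1 of the 12 was higher after knockdown.

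The junction genes lay on both sides of control, and 3 of them were more than 0.5 from it after p/CIP knockdown. Jam2, a junctional adhesion molecule, was 1.99-fold lower over both siRNAs. Dsp, which encodes desmoplakin, the plaque protein that ties desmosomes to keratin filaments, was 1.68-fold higher. Cldn1, a claudin of epithelial barriers, was 1.47-fold higher. The other 30 genes lay between -0.17 and 0.26. Jam2 and Dsp passed the test with the replicate block, and no gene of the 33 passed it without the block.

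The sequences before the start sites of these genes are shown for the 2 that were higher and have an entry in the RefSeq promoter table, Dsp and Cldn1. A promoter entry was found for 20 of the 33 genes, and none for Jam2. The 250 bases before the start are printed on the gene's strand, 5′ to 3′, from RefSeq for GRCm38.p6, at chr13:38151044-38151293 on the plus strand for Dsp and at chr16:26371840-26372089 on the minus strand for Cldn1. Nothing is in capitals because neither holds any of the 3 motifs searched.
Dsp: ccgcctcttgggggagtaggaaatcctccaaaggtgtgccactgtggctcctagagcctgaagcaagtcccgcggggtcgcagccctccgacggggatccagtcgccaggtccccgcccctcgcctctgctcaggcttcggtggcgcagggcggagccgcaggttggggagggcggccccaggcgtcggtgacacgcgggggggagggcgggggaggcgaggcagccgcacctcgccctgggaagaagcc
Cldn1: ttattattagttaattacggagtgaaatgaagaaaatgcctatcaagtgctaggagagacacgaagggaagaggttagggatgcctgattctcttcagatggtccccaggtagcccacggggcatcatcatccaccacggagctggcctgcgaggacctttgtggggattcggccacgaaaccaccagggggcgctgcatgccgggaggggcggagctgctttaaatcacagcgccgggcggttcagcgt

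The motifs were TCAAGGTCA, a site of estrogen-related receptors, CACCTG, the E-box bound by Snail and Zeb repressors, and CACCC, the core bound by Kruppel-like factors, each on both strands. A gene counted where any of its start sites had the motif. TCAAGGTCA was in 0 of the 20 genes with a promoter entry, against 0.422% of 27025 genes. CACCC was in 15 of 20, against 54.5% of genes, and CACCTG in 10 of 20, against 19.4%. Over start sites, of which some genes have several, the median GC content was 59.8% for the 20 genes and 52.4% for all. The part of GC content in these shares was not tested. Windows around the E-box are shown for the adjacent keratin genes Krt8 and Krt18, and for 3 tight junction genes that were higher on all 4 knockdown arrays, Cldn4, Cldn6 and Ocln. They were chosen after the matches were seen. Cldn1, Cldn3 and Tjp1 were also higher on all 4 knockdown arrays and held no CACCTG. The other genes with a match were F11r at -0.06, Cldn7 at 0.19, Tjp3 at 0.03, Epcam at 0.02 and Krt7 at 0.12. A further match in Ocln, 213 bases before the start, is not shown. Whether the E-box goes with the changes was not tested. Capitals mark CACCTG, or CAGGTG where the match is on the opposite strand, and each is printed on the gene's strand from GRCm38.p6. They lie at chr15:102004428-102004473 (minus) for Krt8, chr15:102027982-102028027 (plus) for Krt18, chr5:134946935-134946968 (minus) for Cldn4, chr17:23679252-23679297 (plus) for Cldn6 and chr13:100552541-100552586 (minus) for Ocln. A match is a run of letters and does not show that a factor was bound.
Krt8: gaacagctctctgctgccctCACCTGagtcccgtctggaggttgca
Krt18: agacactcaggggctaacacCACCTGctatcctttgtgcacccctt
Cldn4: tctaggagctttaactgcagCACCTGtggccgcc
Cldn6: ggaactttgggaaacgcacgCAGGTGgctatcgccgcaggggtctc
Ocln: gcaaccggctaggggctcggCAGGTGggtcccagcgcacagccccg

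The 33 genes were chosen with earlier results of these data known. Their counts against all genes, here and below, are therefore descriptive and no independent test. Across both siRNAs, 0 of the 33 genes were called by limma without the block, against 0.0702% of all genes. Without adjustment 8 of 33 had a p under 0.05, against 8.72% of all genes. Of these, 7 were higher, against 3.86% of all genes, and 1 was lower, against 4.86%. With the replicate block 2 of 33 were called, Dsp higher and Jam2 lower, against 0.341% of all genes. With eBayes' trend and robust options the count was also 2. The 4 knockdown arrays lay above both control arrays for 10 of the 33 genes, against 8.83% of all genes, and below both for 1 of the 33, against 10.1%. The 10 were Cldn1, Cldn3, Cldn4, Cldn6, Ocln, Tjp1, Dsp, Pkp3, Cdh1 and Ctnna1, and the 1 was Jam2. Over the 33 genes the median change was 0.11, with 21 above 0, against a median of 0.01 and 52.3% above 0 over all genes. The 95% interval of the change lay within 0.5 of 0 for 26 of the 33 (78.8%), against 90.4% of all genes.

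**Figure D1:**
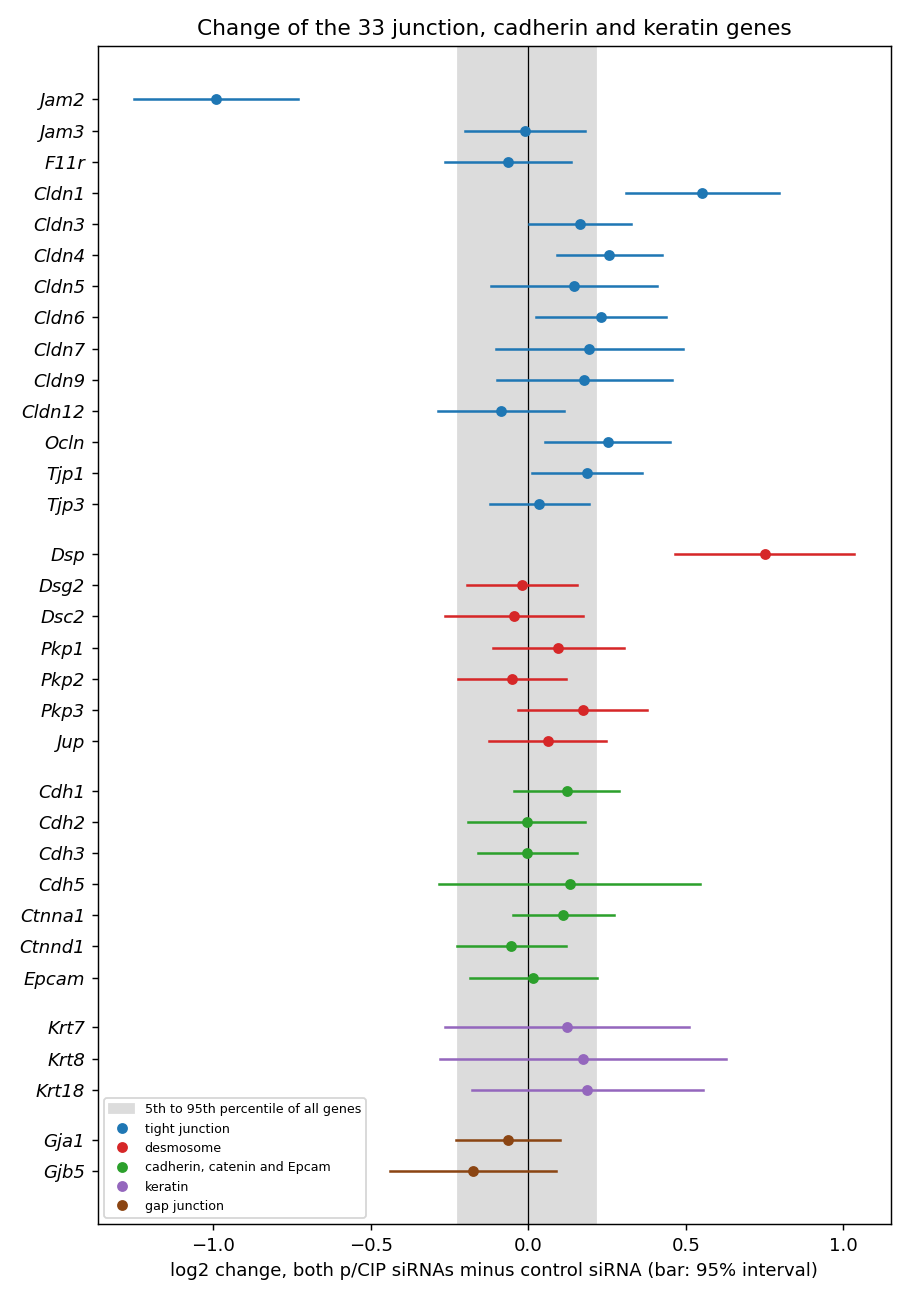
Log2 change over both p/CIP siRNAs relative to control siRNA (x axis) for each of the 33 genes (y axis), coloured by junction type, with the limma 95% interval as a bar and the 5th to 95th percentile of all genes as a grey band. Jam2 at -0.99, Dsp at 0.75 and Cldn1 at 0.55 lie outside the band with their whole intervals.

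Among the junctional adhesion molecules, immunoglobulin-like proteins of tight junctions, Jam2 alone separated the groups on all arrays. Jam2 read 11.02 and 10.87 with siRNA 1 and 11.11 and 10.95 with siRNA 2, against 12.13 and 11.82 in control cells. Every knockdown array was below both control arrays. Jam2 averaged 10.98 ± 0.104 in knockdown cells (SD, n = 4) and 11.98 ± 0.219 in control cells (SD, n = 2), a log2 change of -0.99 (95% interval -1.25 to -0.73, adjusted p = 0.0571). It passed the threshold with the replicate block, at an adjusted p of 0.018. Its change ranked 8th in size among the 19938 genes.

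Jam2 was below control with each siRNA. The change was -1.03 with siRNA 1 (adjusted p = 0.0688, or 0.0183 with the block) and -0.95 with siRNA 2 (adjusted p = 0.177, or 0.048 with the block). Both are measured against the same 2 control arrays. Between arrays of equal number the differences were -1.12 with siRNA 1 and -1.02 with siRNA 2 in replicate 1, and -0.95 and -0.87 in replicate 2. When single arrays were left out, the change stayed between -1.15 and -0.84, with adjusted p-values of 0.0358 (without siRNA 1 replicate 1) to 0.784, and with the block between -1.07 and -0.91, with adjusted p-values of 0.00683 to 0.307. With the block, Jam2 and Dsp were both called without either siRNA 1 array and neither was called without any one of the other 4 arrays.

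The other junctional adhesion molecules showed no such difference. F11r, which encodes JAM-A, was at 11.37 and 11.23 with siRNA 1 and 11.40 and 11.34 with siRNA 2, against 11.49 and 11.30 in control cells, a change of -0.06. Jam3 was at 7.68 and 7.50 with siRNA 1 and 7.33 and 7.31 with siRNA 2, against 7.41 and 7.51 in control cells, a change of -0.01. The arrays of the groups overlapped for both genes, and their 95% intervals were -0.26 to 0.14 for F11r and -0.20 to 0.18 for Jam3. F11r was at 0.0288 without control replicate 1 and Jam3 at 0.0392 without control replicate 2. Jam2 is also a marker of endothelium, so the endothelial list was read without the junction genes. Its 8 genes averaged 8.03 to 8.05 per array with siRNA 1 and 7.96 to 8.00 with siRNA 2, against 7.98 to 8.00 in control cells. Their single changes over both siRNAs ran from -0.26 to 0.49. The part of endothelial cells in the Jam2 values was not tested.

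**Figure D2:**
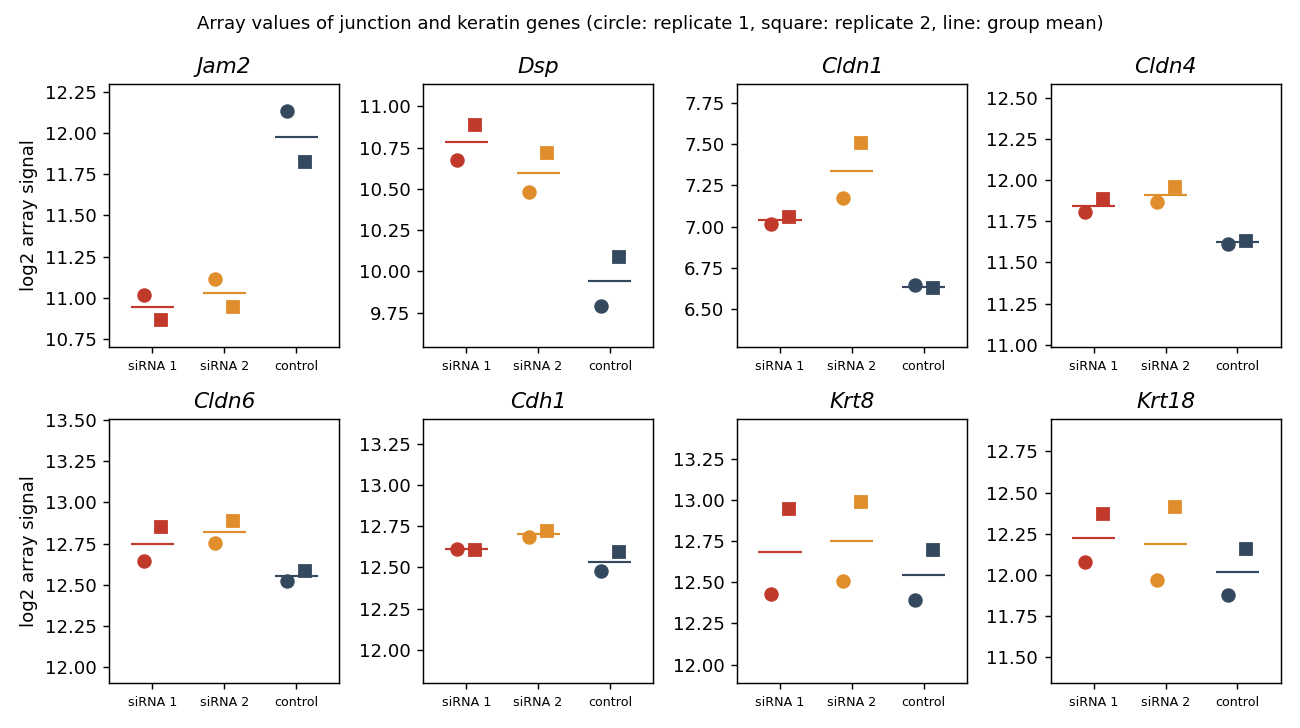
Log2 array signal (y axis, the same width of scale in each panel, placed at the gene's own level) of 8 genes on the 6 arrays, by group (x axis), with a circle for replicate 1, a square for replicate 2 and a line for the group mean. The control arrays stand above all knockdown arrays for Jam2 and below them for Dsp, Cldn1, Cldn4, Cldn6 and, narrowly, Cdh1. Krt8 and Krt18 separate by replicate number within each group.

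The claudins, the membrane proteins that form tight junction strands, were mostly slightly higher. Of the 8 claudins 7 were above 0, with a median of 0.19, against 52.3% above 0 over all genes. Without the block 0 of the 8 were called, against 0.0702% of all genes, and with it 0, against 0.341%. Cldn1 read 7.02 and 7.06 with siRNA 1 and 7.17 and 7.51 with siRNA 2, against 6.65 and 6.63 in control cells. All 4 knockdown arrays were above control, and the siRNA 2 arrays were above the siRNA 1 arrays. The log2 change was 0.55 (95% interval 0.31 to 0.79), with an adjusted p of 0.186, or 0.0703 with the block. Without either one of the siRNA 1 arrays the block fit called it, and over all single arrays left out its adjusted p ran from 0.0377 to 0.468 in that fit.

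Cldn4, a barrier claudin of many epithelia, read 11.80 and 11.89 with siRNA 1 and 11.87 and 11.96 with siRNA 2, against 11.61 and 11.63 in control cells, a change of 0.26 (adjusted p = 0.351). Cldn6, an embryonic claudin of early epithelia, read 12.64 and 12.85 with siRNA 1 and 12.76 and 12.89 with siRNA 2, against 12.52 and 12.58 in control cells, a change of 0.23 (adjusted p = 0.529). Cldn3 read 8.74 and 8.82 with siRNA 1 and 8.67 and 8.65 with siRNA 2, against 8.53 and 8.58 in control cells, a change of 0.16 (adjusted p = 0.563). In these 3 genes the groups did not overlap, but no change passed the test. Over all genes, 8.83% had all 4 knockdown arrays above both control arrays.

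For the other claudins the groups overlapped. Cldn7, widespread in epithelia, was at 0.19, Cldn9 at 0.18 and Cldn5, the claudin of endothelial barriers, at 0.14. Cldn12 was the only claudin below 0, at -0.09. Cldn3 and Cldn4 are neighbours on the chromosome with no coding gene between them, as are Cldn6 and Cldn9, so these pairs share a locus.

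Occludin and the scaffolds of tight junctions gave small values of the same sign. Ocln, which encodes occludin, read 7.82 and 7.66 with siRNA 1 and 7.95 and 7.78 with siRNA 2, against 7.57 and 7.53 in control cells, a change of 0.25 (adjusted p = 0.473). Tjp1, which encodes the scaffold ZO-1, read 11.08 and 11.14 with siRNA 1 and 11.14 and 11.19 with siRNA 2, against 10.89 and 11.02 in control cells, a change of 0.19 (adjusted p = 0.546). Neither gene's groups overlapped. Tjp3, which encodes ZO-3, was at 0.03 with overlapping groups. Over the 14 tight junction genes the median was 0.17 with 10 above 0, against 52.3% above 0 over all genes. Of the 14, 6 were higher with no overlap between groups, against 8.83%. These genes were chosen with earlier results of these data known, so the shares are descriptive.

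In desmosomes, Dsp was higher than in control cells and the genes of its partners lay between -0.05 and 0.17. Dsp read 10.68 and 10.89 with siRNA 1 and 10.48 and 10.72 with siRNA 2, against 9.79 and 10.09 in control cells. The lowest knockdown array was above the higher control array. Dsp averaged 10.69 ± 0.167 in knockdown cells (SD, n = 4) and 9.94 ± 0.21 in control cells (SD, n = 2). The log2 change was 0.75 (95% interval 0.47 to 1.04, adjusted p = 0.146), and with the replicate block the adjusted p was 0.018. Of the 19938 genes in this fit, none had a change further above 0.

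The change of Dsp was 0.84 with siRNA 1 (adjusted p = 0.128, or 0.0183 with the block) and 0.66 with siRNA 2 (adjusted p = 0.385, or 0.0484 with the block). Between arrays of equal number the differences were 0.89 with siRNA 1 and 0.69 with siRNA 2 in replicate 1, and 0.80 and 0.63 in replicate 2. Within each group replicate 2 was above replicate 1, by 0.21 with siRNA 1, 0.24 with siRNA 2 and 0.30 in control cells. When single arrays were left out, the change stayed between 0.60 and 0.90, with adjusted p-values of 0.0718 to 1.00. With the block it stayed between 0.71 and 0.79, with adjusted p-values of 0.00775 to 0.307.

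None of the other desmosome genes was called in either fit. Pkp3, a plakophilin of the desmosomal plaque, read 8.63 and 8.87 with siRNA 1 and 8.74 and 8.68 with siRNA 2, against 8.55 and 8.58 in control cells, a change of 0.17. Its groups did not overlap. Pkp1 was at 0.10 and Pkp2 at -0.05, and Jup, which encodes plakoglobin, shared by desmosomes and adherens junctions, was at 0.06. The desmosomal cadherins Dsg2 and Dsc2 were at -0.02 and -0.04. Each of these 5 had overlapping groups, and Dsg2 lay just above 0 under quantile or cyclic loess normalization. Without single arrays, Dsg2, Dsc2 and Pkp2 reached 0.0178, 0.0347 and 0.0041.

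The cadherins and their partners lay close to 0. Cdh1, which encodes E-cadherin, read 12.61 and 12.61 with siRNA 1 and 12.68 and 12.72 with siRNA 2, against 12.48 and 12.59 in control cells, a change of 0.12 (95% interval -0.04 to 0.29, adjusted p = 0.662). Its groups did not overlap, although the lowest knockdown array was close to the higher control array. Cdh2, which encodes N-cadherin, was at -0.01 (95% interval -0.19 to 0.18), and Cdh3, which encodes P-cadherin, was at 0.00 to 2 decimals (95% interval -0.16 to 0.15). Under quantile or cyclic loess normalization Cdh2 and Cdh3 lay just above 0. Cdh1 and Cdh3 are neighbours on the chromosome. Cdh5, the cadherin of endothelium, was at 0.13, with a wide interval of -0.28 to 0.54, and without control replicate 1 it was at -0.118.

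Among the catenins, Ctnna1, which encodes alpha-catenin, the link of cadherins to actin, read 11.92 and 11.91 with siRNA 1 and 11.86 and 11.90 with siRNA 2, against 11.83 and 11.75 in control cells, a change of 0.11. Ctnnd1, which encodes catenin delta 1, a protein that stabilises cadherins at the membrane, was at -0.05. Epcam, an adhesion molecule of epithelia and of embryonic stem cells, was at 0.02, and without control replicate 2 it was at -0.067. The 7 genes of cadherins, catenins and Epcam had a median of 0.02, with 4 above 0, against 52.3% above 0 over all genes. Without the block 0 of the 7 were called, against 0.0702% of all genes, and with it 0, against 0.341%.

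The keratins had overlapping groups and lay apart by replicate number. Krt8 read 12.43 and 12.94 with siRNA 1 and 12.51 and 12.99 with siRNA 2, against 12.39 and 12.69 in control cells. Krt18, its filament partner, read 12.08 and 12.37 with siRNA 1 and 11.97 and 12.41 with siRNA 2, against 11.88 and 12.16 in control cells. Krt7, a keratin of simple and ductal epithelia, read 8.83 and 9.16 with siRNA 1 and 8.72 and 9.17 with siRNA 2, against 8.69 and 9.00 in control cells. In each gene the groups overlapped, and replicate 2 was above replicate 1 in all 3 groups.

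Over both siRNAs Krt8 was at 0.17 (95% interval -0.28 to 0.63), Krt18 at 0.19 (-0.18 to 0.55) and Krt7 at 0.12 (-0.26 to 0.51), with adjusted p-values of 0.748 to 0.837. The 95% interval lay within 0.5 of 0 for 0 of the 3 keratins, so a difference of that size is within each interval. With the block the intervals were 0.01 to 0.34 for Krt8, 0.03 to 0.34 for Krt18 and -0.02 to 0.27 for Krt7, with adjusted p-values of 0.265 for Krt8, 0.221 for Krt18 and 0.346 for Krt7, so none of the 3 was called. Without control replicate 1, Krt7 was at -0.0344. In replicate 1 the Krt8 difference from control was 0.04 with siRNA 1 and 0.12 with siRNA 2, and in replicate 2 it was 0.25 and 0.29. For Krt18 these differences were 0.20 and 0.09 in replicate 1 and 0.21 and 0.25 in replicate 2, and for Krt7 they were 0.14 and 0.03 in replicate 1 and 0.15 and 0.17 in replicate 2. All lie above 0. Krt8 and Krt18 are neighbours on the chromosome with no coding gene between them.

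**Figure D3:**
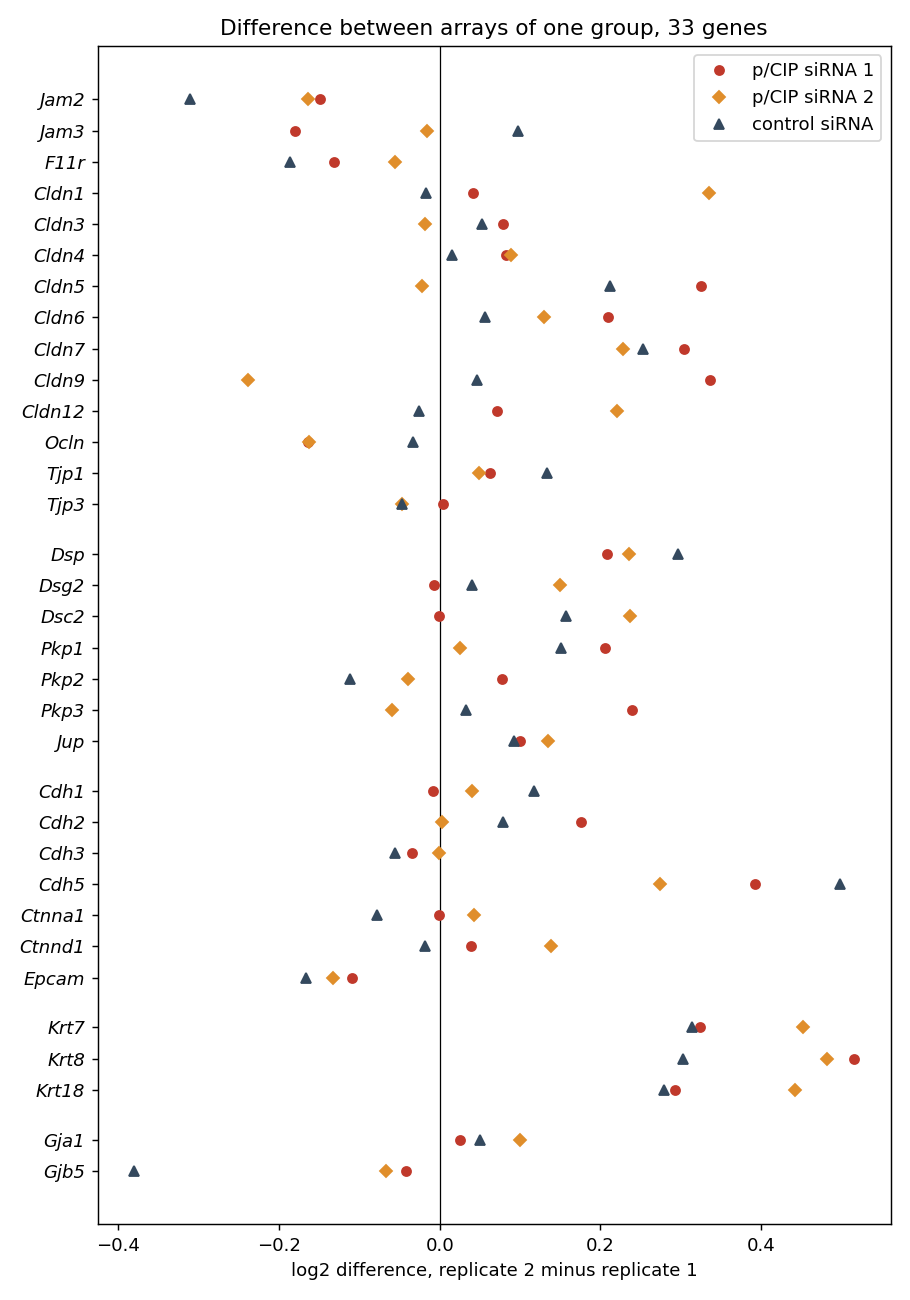
Difference between the 2 arrays of a group, replicate 2 minus replicate 1 on the log2 scale (x axis), for each of the 33 genes (y axis), with a symbol per group. All 3 symbols lie right of 0.25 for Krt7, Krt8, Krt18 and Cdh5, and all 3 lie left of 0 for Jam2, F11r, Ocln, Cdh3, Epcam and Gjb5.

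Replicate 2 was above replicate 1 in all 3 groups for 13 of the 33 genes, against 28.5% of all genes, and below it in all 3 for 6 of the 33, against 21.4%. The keratins had the widest gaps together with Cdh5. Krt8 differed by 0.52 with siRNA 1, 0.48 with siRNA 2 and 0.30 in control cells. Krt18 differed by 0.29 with siRNA 1, 0.44 with siRNA 2 and 0.28 in control cells. The 12 markers of extraembryonic endoderm, which is rich in simple keratins, include the keratin Krt19. These 12 had a median difference of 0.35, and 8 of them were above in all 3 groups. Their mean level per array was 7.89 to 8.41 with siRNA 1 and 7.97 to 8.28 with siRNA 2, against 7.89 to 8.19 in control cells. The 9 trophoblast markers that are not among the 33 genes averaged 8.91 to 8.96 with siRNA 1 and 8.66 to 8.80 with siRNA 2, against 8.71 on both control arrays. The part of these cell types in the keratin values was not tested.

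The gap junction genes were both slightly below 0. Gja1, which encodes the main connexin of embryonic stem cells, read 11.99 and 12.01 with siRNA 1 and 12.00 and 12.10 with siRNA 2, against 12.07 and 12.12 in control cells, a change of -0.06. Gjb5, a connexin of trophoblast and skin, read 8.86 and 8.82 with siRNA 1 and 8.60 and 8.53 with siRNA 2, against 9.07 and 8.69 in control cells, a change of -0.17. The groups overlapped for both, and neither was called in either fit. Without control replicate 1, Gjb5 was at 0.0155.

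The siRNAs were then read apart. With siRNA 1, 0 of the 33 genes were called by limma, against 0.0702% of all genes, and 5 of 33 had an unadjusted p under 0.05, against 12.1% of all genes. With the block 2 were called, Dsp and Jam2, against 1.21% of all genes. With siRNA 2, 0 of the 33 were called, against 0% of all genes, and 8 had an unadjusted p under 0.05, against 5.25%. The target Ncoa3, at -1.49 with siRNA 2, was not called there either (limma adjusted p = 0.0742). With the block Dsp and Jam2 were again called for siRNA 2, against 0.13% of all genes. Since both comparisons share the control arrays, the siRNAs were also compared directly.

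For siRNA 2 minus siRNA 1, 0 of the 33 genes were called in either fit, against 0% of all genes without the block and 0.0752% with it, and 4 had an unadjusted p under 0.05, against 6.9%. Cldn1 was at 0.70 with siRNA 2 and 0.40 with siRNA 1, a difference of 0.30 (95% interval 0.02 to 0.58, adjusted p = 0.718). For Jam2 the difference was 0.09 (95% interval -0.21 to 0.39, adjusted p = 0.858), and for Dsp it was -0.18 (95% interval -0.51 to 0.15, adjusted p = 0.759). Of the other genes of the claudin and occludin group, Cldn4 was at 0.22 with siRNA 1 and 0.29 with siRNA 2, Cldn6 at 0.19 and 0.27, Ocln at 0.19 and 0.31, and Tjp1 at 0.16 and 0.21. Cldn3 was at 0.23 with siRNA 1 and 0.10 with siRNA 2.

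**Figure D4:**
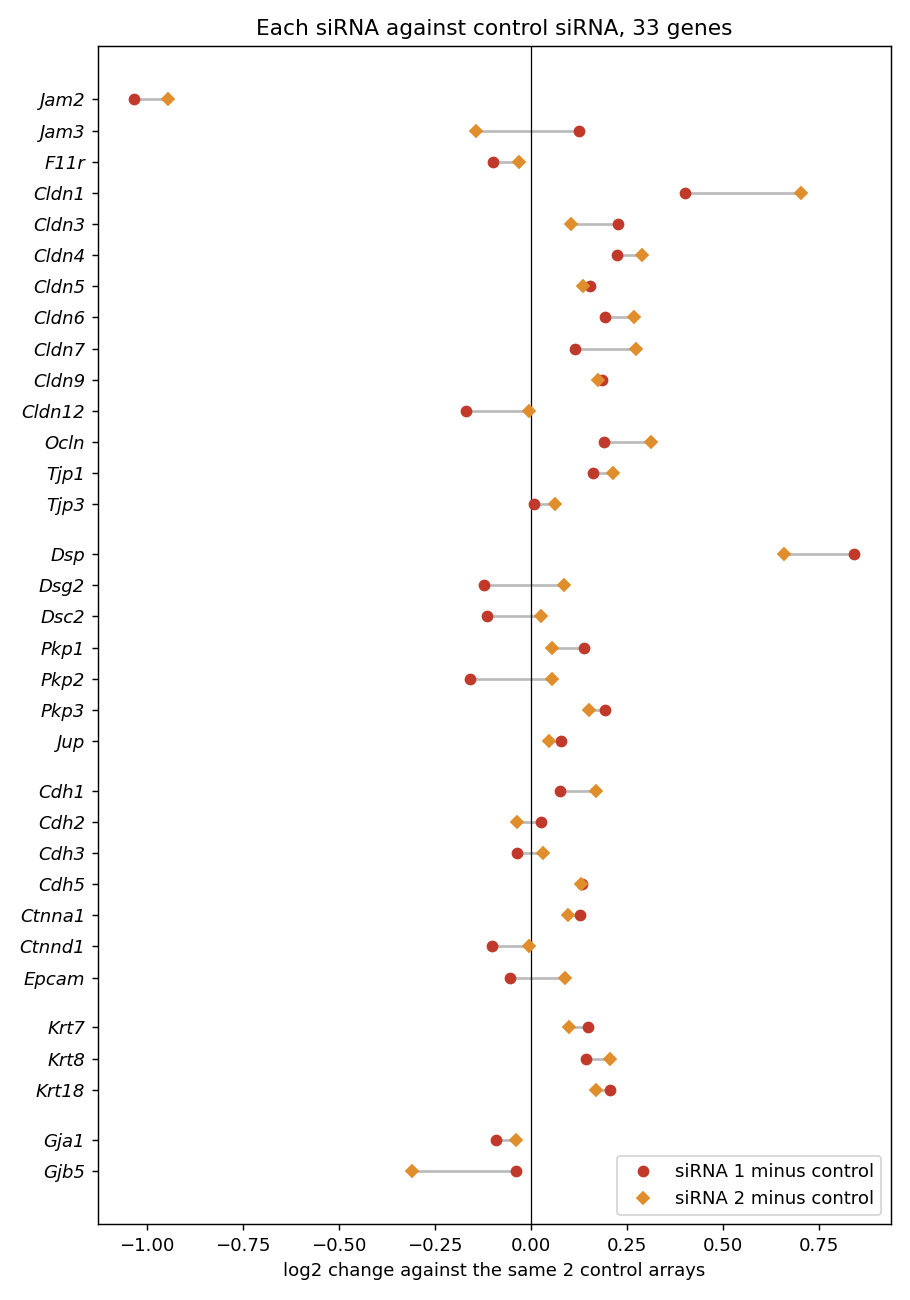
Log2 change relative to the same 2 control arrays (x axis) for each of the 33 genes (y axis), with a circle for siRNA 1 and a diamond for siRNA 2. Jam2 lies at -1.03 with siRNA 1 and -0.95 with siRNA 2, Dsp at 0.84 with siRNA 1 and 0.66 with siRNA 2, and Cldn1 at 0.40 with siRNA 1 and 0.70 with siRNA 2.

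Other genes of the same structures were read from lists, which were also chosen with earlier results of these data known. Of 34 measured tight junction and polarity genes outside the 33, 29 were above 0, with a median of 0.10, against 52.3% above 0 over all genes. None was called in either fit, and 6 were higher and 1 lower at an unadjusted p under 0.05, against 3.86% higher and 4.86% lower over all genes. Amot, which encodes angiomotin, was at 0.37 (adjusted p = 0.215), Patj, a scaffold of the Crumbs polarity complex, at 0.29 (adjusted p = 0.355), and Cgn, which encodes the junction plaque protein cingulin, at 0.26 (adjusted p = 0.495). In these 3 all knockdown arrays were above both control arrays. With siRNA 1, 30 of the 34 were above 0 (median 0.15), against 55.5% of all genes. With siRNA 2, 23 were above 0 (median 0.05), against 47.2% of all genes. For siRNA 2 minus siRNA 1, 10 of the 34 were above 0, against 41.9% of all genes.

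Of 9 other desmosome genes 3 were above 0, with a median of -0.04 and values of -0.10 to 0.09. For this and the lists below, the share above 0 over all genes was 52.3%. Those of smallest p were Dsc3 at -0.10, Evpl at 0.09 and Dsg4 at -0.09, so in this list no gene was near the value of Dsp. Of 29 other cadherin, catenin and nectin genes 17 were above 0, with a median of 0.04. Nectin4, an adhesion molecule of adherens junctions, was at 0.19, Cdh12 at -0.26, and Afdn, which encodes the nectin-binding scaffold afadin, at 0.16.

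Of 22 other keratin genes 13 were above 0, with a median of 0.02. Krt17, a keratin of stressed and basal epithelia, was at 0.43 (adjusted p = 0.233), Krt20 at 0.25 and Krt23 at 0.20. For these 3 the groups did not overlap, and Krt17 was called for siRNA 1 with the block (0.55, adjusted p = 0.048). Krt19, a keratin of simple epithelia, differed between the siRNAs and was singled out after its values were seen. It read 8.27 and 8.57 with siRNA 1 and 9.48 and 9.92 with siRNA 2, against 9.26 and 9.50 in control cells. Both siRNA 1 arrays were below both control arrays, and the siRNA 2 arrays overlapped with control. Its change was -0.32 over both siRNAs (adjusted p = 0.604), -0.96 with siRNA 1 (adjusted p = 0.146, or 0.0183 with the block) and 0.32 with siRNA 2 (adjusted p = 0.999). For siRNA 2 minus siRNA 1 it was 1.29 (adjusted p = 0.222, or 0.0395 with the block). Of 14 other gap junction genes 8 were above 0, with a median of 0.10, and Gjc1 was at -0.33, Gjb6 at 0.27 and Gja5 at 0.18. In these lists 0 genes were called over both siRNAs in either fit, and the calls with single siRNAs were those of Krt17 and Krt19 with the block.

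Among 23 regulators of epithelial and mesenchymal states 0 were called without the block, and 1, Klf4, was called with it. Klf4, a Kruppel-like factor of embryonic stem cells and epithelia, read 9.92 and 9.74 with siRNA 1 and 9.91 and 9.65 with siRNA 2, against 10.70 and 10.47 in control cells. Its change was -0.78, with an adjusted p of 0.134, or 0.018 with the block. Zeb1, a repressor of Cdh1 in epithelial to mesenchymal transition, was at -0.31 (adjusted p = 0.23), and Tfcp2l1, a factor of naive stem cells and of renal epithelium, was at -0.33 (adjusted p = 0.349). Of the other Snail and Zeb factors, Snai1 was at 0.02, Snai2 at -0.08, Snai3 at -0.21 and Zeb2 at -0.07. The list as a whole had 11 genes above 0 and a median of -0.01.

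**Figure D5:**
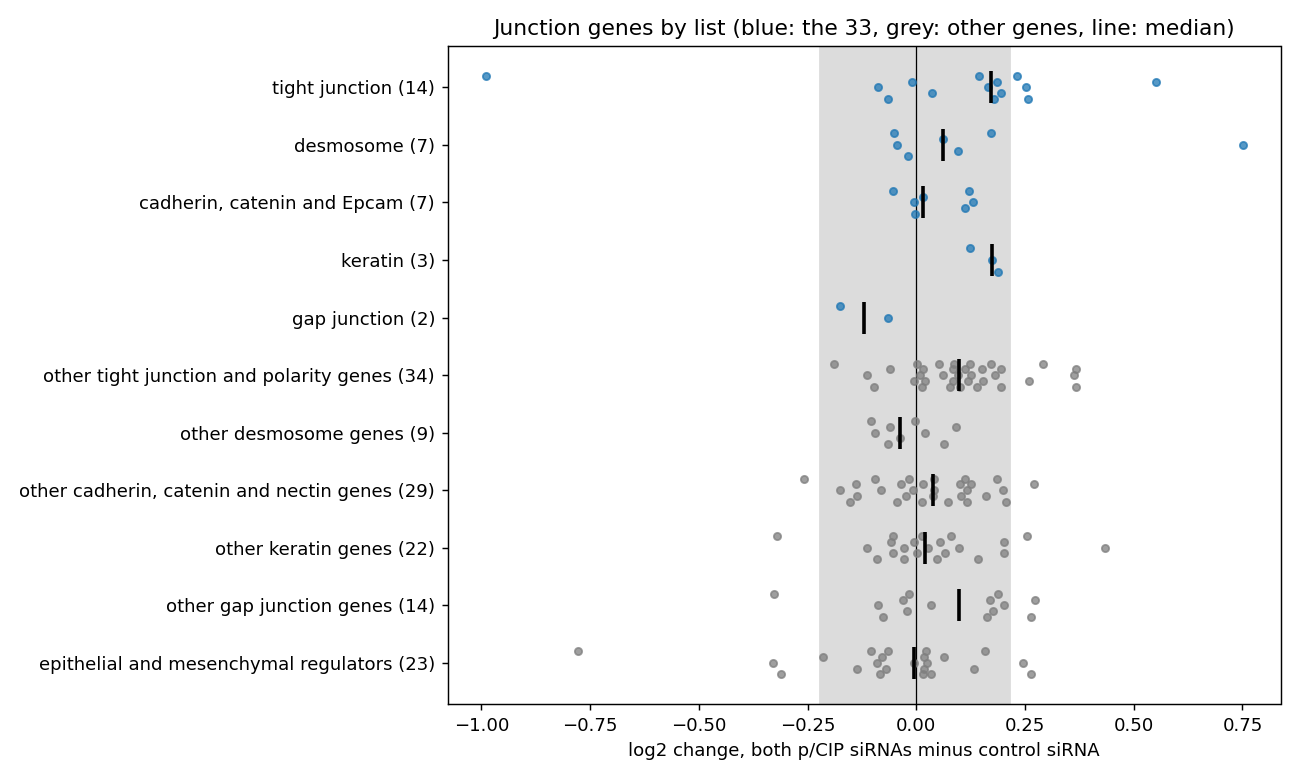
Log2 change over both p/CIP siRNAs relative to control siRNA (x axis) of every measured gene in 11 lists (y axis, with the number of genes), with blue points for the 33 genes, grey points for other genes, a black tick for each median and a grey band from the 5th to the 95th percentile of all genes. Medians run from -0.12 for the 2 gap junction genes to 0.17 for the keratins and the tight junction genes, and the lowest point is Jam2 at -0.99.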

How the data were processed

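RNA from 6 samples labelled as E14 embryonic stem cells was measured on single-colour expression arrays, 2 for each of 3 groups. The deposited values are log2 signals made by the authors with Partek, per the submitters' processing notes. The sources used here do not give the version, background correction or normalization. The base was inferred from the range of 2.69 to 14.6. No detection calls were used, and the number of arrays limits the precision (median SD within a group 0.1).

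GEO's platform annotation gave 1 symbol for 21789 of 35556 probe sets, several for 1621, which were left unnamed, and did not list 12146. The brightest probe set stood for a gene, which left 19938 genes.

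One model with a coefficient per group was fitted in limma 3.58.1 (R 4.3.3; lmFit, contrasts.fit, and eBayes without trend or robust options), with no filter and 3 residual and 3.84 prior degrees of freedom. Tests were two-sided with Benjamini-Hochberg adjustment over the 19938 genes, and the code was tested on simulated data. Alternatives were the replicate block, other normalizations, probe set rules, a filter, other moderation and arrays left out.

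Equal replicate numbers were taken to pair arrays. Deviations from the group means correlated between arrays of equal number at 0.464 (siRNA 1 and control), 0.407 (siRNA 2 and control) and 0.461 (siRNA 2 and siRNA 1) across genes, all over 0.1. With 2 arrays per group this check is weak, and the labels do not say what the number marks.

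The 33 genes and the gene lists were chosen with earlier results of these data known. Beyond the 33 genes and Ncoa3, the text names from each list of other junction, keratin and regulator genes those called in a contrast without the block (there were none) and then those of smallest p for both siRNAs, until 3 are named. Krt19 was added after its values were seen, and Snai1, Snai2, Snai3 and Zeb2 as the other Snail and Zeb factors. Some listed genes are not reported here. Promoters are those of the RefSeq table for GRCm38.p6.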

Additional observations from a re-analysis of the deposited data

Results flagged for a closer look

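For 5 genes, both arrays of one siRNA lay above the control mean and both arrays of the other lay below it. Jam3 was higher with siRNA 1 than with siRNA 2, by -0.27 for siRNA 2 minus siRNA 1 (limma adjusted p = 0.696, or 0.261 with the replicate block). The other 4, desmosome, cadherin and adhesion genes, ran the other way for siRNA 2 minus siRNA 1. They were Pkp2 at 0.21 (adjusted p = 0.718, or 0.278 with the block), Dsg2 at 0.21 (adjusted p = 0.718, or 0.276 with the block), Epcam at 0.14 (adjusted p = 0.753, or 0.342 with the block) and Cdh3 at 0.0689 (adjusted p = 0.818, or 0.605 with the block). None of these differences between the siRNAs passed the threshold.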

How the results depend on the processing

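Counts of called genes are given for both siRNAs, siRNA 1, siRNA 2 and siRNA 2 minus siRNA 1, in that order. With the replicate block they were 68, 241, 26 and 15, against 14, 14, 0 and 0 without it, and the junction genes called were 2, 2, 2 and 0, against 0 in each comparison. With trend and robust options 71, 150, 17 and 23 genes and 2, 2, 1 and 0 junction genes were called. Among genes at or above the median gene 38, 85, 11 and 4 were called, with 1, 1, 0 and 0 junction genes. With all probe sets tested 0 were called for both siRNAs and for siRNA 1. Cyclic loess gave 37 genes for siRNA 1 and 2 for siRNA 2, quantile normalization 2 for siRNA 2, and aligned medians 35, 5 and 4 in the last 3 comparisons. With only the groups compared in the fit, siRNA 1 had 0 and siRNA 2 had 10. For both siRNAs, quantile normalization and cyclic loess each called 1 junction gene, Jam2 (adjusted p = 0.0344 and 0.0304), and aligned medians called 2, Jam2 and Dsp (adjusted p = 0.0424 and 0.0434). For siRNA 1 cyclic loess called 1 and aligned medians 2. Leaving out each array in turn gave 0 to 37, 0 to 437, 0 to 10 and 0 to 2 genes. The junction genes called were then 0 to 1 for both siRNAs and 0 to 2 for siRNA 1. With the block, and without siRNA 1 replicate 1 or without siRNA 1 replicate 2, they were 3, 2 and 3 for both siRNAs, siRNA 1 and siRNA 2. Without any other array they were 0. This last setting was chosen after seeing the data. Where an array is left out, the lone array of its group is assumed to vary like the other groups.

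Apart from arrays left out, group medians for both siRNAs ran from 0.16 to 0.18 for tight junctions, 0.05 to 0.07 for desmosomes, 0.00 to 0.06 for cadherins, catenins and Epcam, 0.16 to 0.22 for keratins and -0.13 to -0.08 for gap junctions, and the last ran from -0.203 to -0.0371 as arrays were left out. Values near 0 turned sign with quantile and loess normalization for Dsg2 (0.0091 and 0.0068), Cdh2 (0.0313 and 0.0221) and Cdh3 (0.0274 and 0.0364). As arrays were left out, changes turned sign for Jam3 (-0.058 to 0.0392), F11r (-0.157 to 0.0288), Dsg2 (-0.0568 to 0.0178), Dsc2 (-0.123 to 0.0347), Pkp2 (-0.108 to 0.0041), Cdh2 (-0.049 to 0.0387), Cdh3 (-0.0309 to 0.0253), Cdh5 (-0.118 to 0.38), Epcam (-0.067 to 0.0993), Krt7 (-0.0344 to 0.28) and Gjb5 (-0.365 to 0.0155). The cause was not tested. No scaling moved the median of all genes by over 0.1.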
